A study of Homo sapiens with 16 samples.

Results

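MicroRNA host gene lncRNAs are long non-coding RNAs named after the microRNA whose hairpin lies in or beside them. They were taken here as all genes whose symbol begins with MIR and ends with HG and that carry a value in the deposited expression table. Of 66 names of this form, 19 had no value in any library, which left 47 genes of 24878. The deposited table types each of the 47 as a lncRNA, and it holds 7120 lncRNAs in all. The cells were HEK293T, a line from human embryonic kidney, and their RNA was labelled alive with the probe AC-2, which the esterase BS2 unmasks wherever BS2 is targeted. BS2 was expressed transiently in the cytosol (2 pull-down libraries), the nucleus (3), the mitochondria (2) or, as NIK3x-BS2, the nucleolus (2), and non-transfected cells without BS2 gave 3 pull-downs. Every culture received AC-2 at 50 µM for 3 min, stopped with PMSF at 1 mM, and the transfected ones received it 24 h after transfection. There were also 4 inputs, single libraries made without pull-down from the non-transfected cells and from those with cytosolic, nuclear or mitochondrial BS2. Non-transfected cells differed from the others in transfection as well as in BS2, and these cannot be told apart in any comparison with them.

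MicroRNAs are cut out of longer primary transcripts. In the nucleus, the enzyme DROSHA and its partner DGCR8 release a hairpin, exportin 5 (XPO5) carries it to the cytosol, and DICER1 trims it to the mature microRNA that guides Argonaute proteins to target mRNAs. A host lncRNA is the spliced or unspliced transcript of such a locus, and the hairpin may lie in one of its introns or exons. The mature microRNAs themselves have no poly(A) tail, and since RNA was selected by poly(A), only the tailed host transcripts were measured.

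The mature microRNAs encoded by the hosts that differed most between the nuclear and cytosolic pull-downs, with let-7c from MIR99AHG beside the other let-7 sequences, show how the hosts group by the targets their microRNAs can read. The sequences are from RefSeq on GRCh38.p14, 5′ to 3′, with the seed (bases 2 to 8, which pairs with target mRNAs) in capitals. MIR34AHG carries miR-34a, a microRNA induced by the tumour suppressor p53. MIR17HG carries the oncogenic miR-17-92 cluster, MIR503HG lies at miR-503 and miR-424, which restrain the cell cycle, and MIR222HG at miR-221 and miR-222, which repress the cell cycle inhibitor CDKN1B. MIR22HG carries miR-22, and MIRLET7A1HG lies among let-7 hairpins, whose microRNAs repress LIN28B and other growth genes.
hsa-miR-34a-5p: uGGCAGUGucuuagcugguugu
hsa-miR-17-5p: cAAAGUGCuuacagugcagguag
hsa-miR-20a-5p: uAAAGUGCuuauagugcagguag
hsa-miR-18a-5p: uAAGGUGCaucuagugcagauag
hsa-miR-19a-3p: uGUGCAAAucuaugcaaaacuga
hsa-miR-19b-3p: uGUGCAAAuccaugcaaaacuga
hsa-miR-92a-3p: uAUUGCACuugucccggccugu
hsa-miR-503-5p: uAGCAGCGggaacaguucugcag
hsa-miR-424-5p: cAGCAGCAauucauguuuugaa
hsa-miR-221-3p: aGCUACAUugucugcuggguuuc
hsa-miR-222-3p: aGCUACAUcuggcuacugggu
hsa-miR-22-3p: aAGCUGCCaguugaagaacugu
hsa-let-7a-5p: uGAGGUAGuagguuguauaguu
hsa-let-7f-5p: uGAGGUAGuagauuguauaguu
hsa-let-7d-5p: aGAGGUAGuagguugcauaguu
hsa-let-7c-5p: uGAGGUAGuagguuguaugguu

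Within MIR17HG, miR-17-5p and miR-20a-5p share all 7 seed bases and match at 21 of 23 positions when aligned from the 5′ end, and miR-19a-3p and miR-19b-3p share a second seed and match at 22 of 23. The seed of miR-18a-5p matches that of miR-17-5p at 6 of 7 bases. MIR222HG carries a pair with the same seed, whereas miR-503-5p and miR-424-5p match at 6 of 7 seed bases. Sequences were compared only among hosts with a mean of at least 5 CPM in a pull-down group. There the let-7 seed GAGGUAG occurs beside MIRLET7A1HG, in let-7a, let-7f and let-7d, and in let-7c within MIR99AHG. These 2 hosts on different chromosomes thus lie at 4 mature microRNAs of one seed. Among the lower hosts, MIRLET7BHG on chromosome 22 and MIR100HG also hold let-7 hairpins.

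Levels are in CPM, reads per mega-read (M) of the library after the authors' normalization. The step between the lowest levels put the depth at 6.34 to 20.0 M reads per library, so 1 read stood for 0.0541 to 0.154 CPM and 3 reads, taken as the limit of detection, for 0.162 to 0.461 CPM. All 9 markers chosen for HEK293T reached 1 CPM, with a summed level of 631 to 1292 CPM per library. The summed markers of blood, endothelium, hepatocyte and keratinocyte did not exceed 4.15 CPM in any library, with KRT14 without a value, and the 4 fibroblast markers summed to 11.9 to 28.5 CPM. Replicates are biological by their labels, but separate cultures are not named, and p-values therefore reflect a spread between libraries that could be technical in part.

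Most host genes were low. Of the 47, 23 reached 1 CPM in at least 2 of the 12 pull-downs and were tested, and 12 of them had a mean of at least 5 CPM in a pull-down group. Among the 24 that were not tested, 19 stayed under 1 CPM in all 16 libraries, and the highest value was 2.02 CPM, for MIR663AHG in the second nucleolar pull-down, against 0.669 CPM in the first and at most 0.790 CPM in any other library. The summed level of the 47 genes was 173 to 189 CPM in the nuclear pull-downs, 92.7 and 96.6 CPM in the cytosolic, 124 to 139 CPM in the non-transfected, 130 and 132 CPM in the mitochondrial and 141 and 165 CPM in the nucleolar. The nuclear pull-downs were the highest and the cytosolic the lowest, with no overlap with any other pull-down group. In this bulk measurement, a lower level from fewer labelled molecules per cell and one from fewer cells contributing cannot be told apart.

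By group means, too, the nuclear pull-downs were most often the highest and the cytosolic most often the lowest. Of the 23 tested host genes, 11 (47.8%) had their highest mean in the nuclear pull-downs, 5 in the nucleolar, 5 in the non-transfected, 2 in the cytosolic and 0 in the mitochondrial. The nuclear pull-downs held the highest mean for 28.5% of the 2097 lncRNAs and 18.9% of the 16133 genes tested. Over all genes, the shares of the others were 20.3% nucleolar, 36.2% non-transfected, 14.1% cytosolic and 10.5% mitochondrial. The nucleolar count of host genes (21.7%) was thus near the share over all genes. The cytosolic pull-downs held the lowest mean for 12 of the 23 (52.2%), against 28.2% of lncRNAs and 8.55% of all genes.

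**Figure D1:**
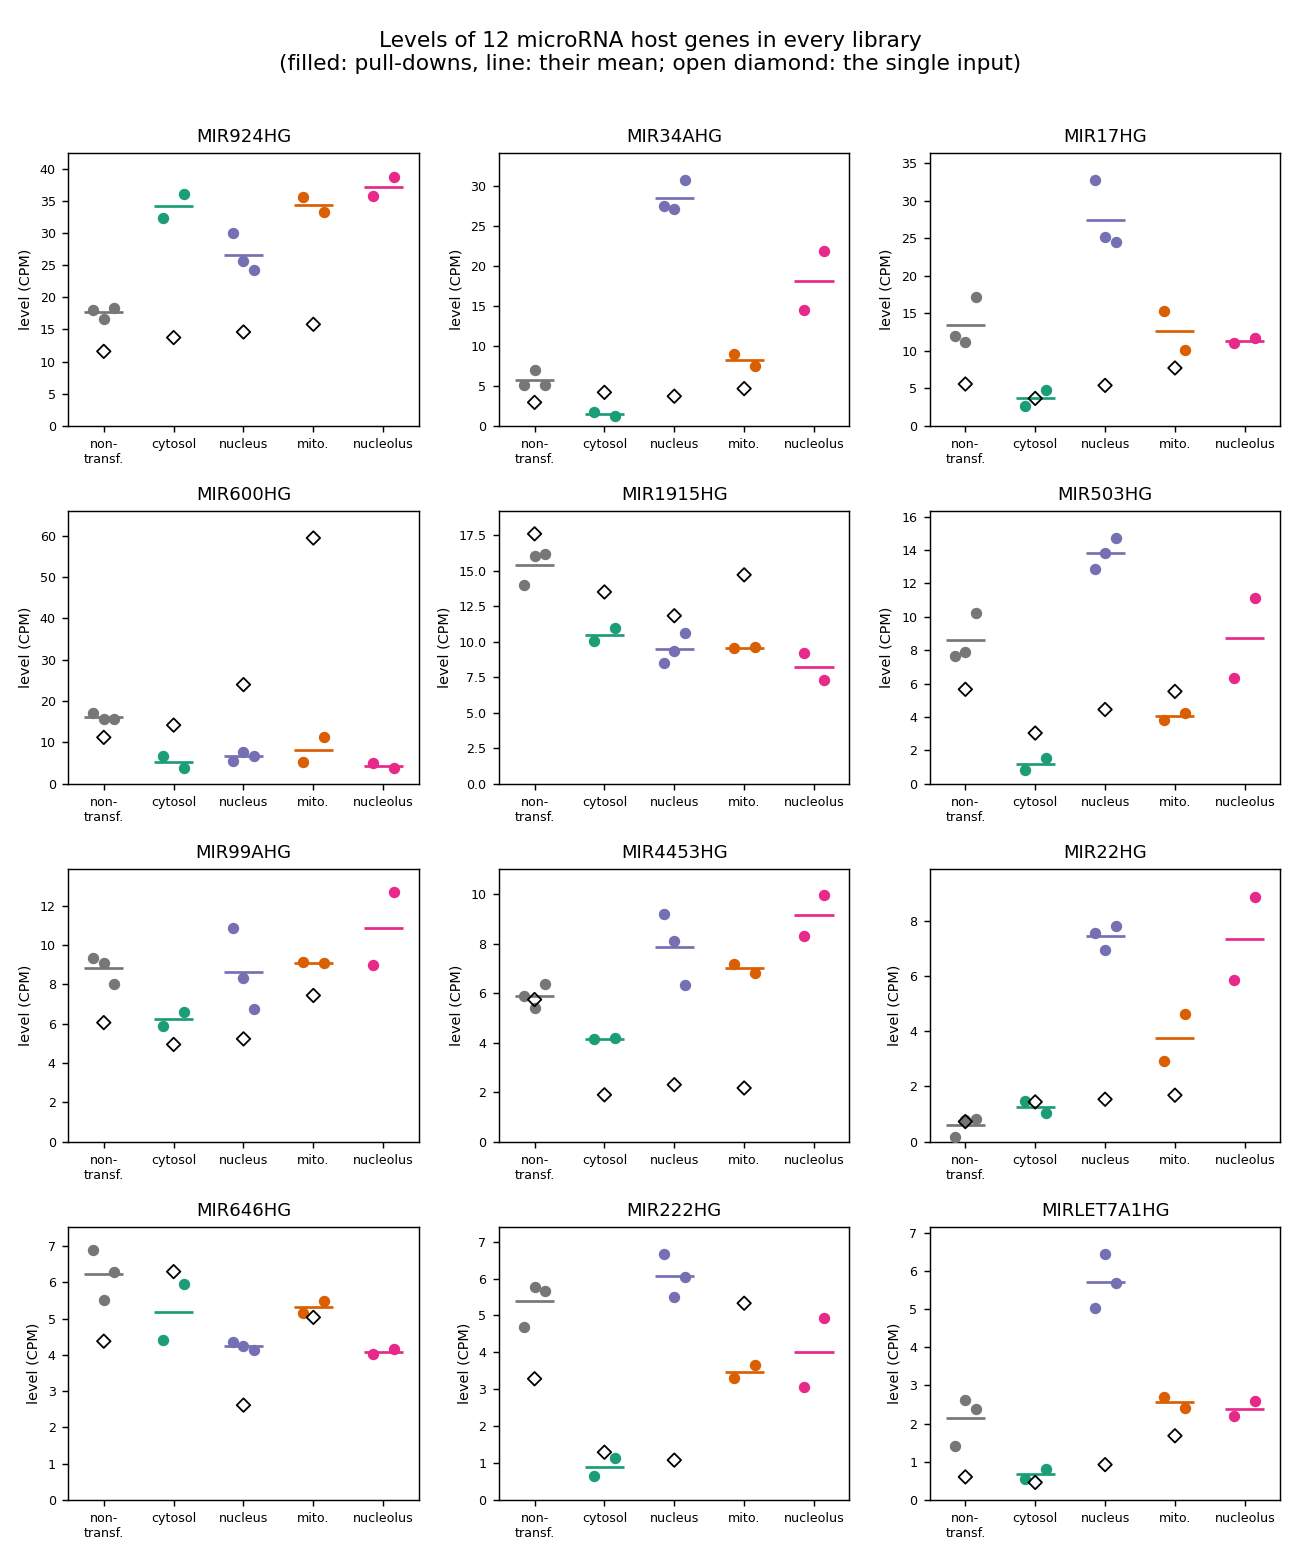
Level in CPM (linear axis from 0, own scale per panel) of the 12 host genes with a mean of at least 5 CPM in a pull-down group. Filled points are pull-downs, lines their means and open diamonds the single inputs; MIR34AHG is at 27.1 to 30.7 CPM in the nuclear and 1.21 to 1.66 CPM in the cytosolic pull-downs.

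The first question was how the host transcripts divided between the nuclear and the cytosolic esterase, where 3 nuclear were set against 2 cytosolic pull-downs. The hosts of miR-34a, the miR-17-92 cluster, miR-503 with miR-424, miR-221 with miR-222, miR-22 and the let-7 cluster on chromosome 9 were all higher with nuclear BS2. In total 9 of the 23 host genes rose and 1 fell (limma, Benjamini-Hochberg adjusted p < 0.05 over 16133 genes), while 10.2% of all genes rose and 23.2% fell. Among the 2097 lncRNAs, 428 rose (20.4%) and 41 fell (1.96%). The 23 tested host genes of small nucleolar RNAs (SNHG genes) gave 9 higher and 5 lower. Log2 changes are on the log2(CPM + 1) scale, where changes of genes at or under 1 CPM come out too small. Their median was 0.39 over the host genes, 0.17 over lncRNAs, 0.15 over the SNHG genes and -0.12 over all genes. The median of all genes moved to 0.10 when CPM was rescaled to a common total, and that of the host genes to 0.61. With that scaling 76.3% of all calls were higher, and 51.5% with quantile normalization, against 30.4% here, and 11 and 8 of the host genes rose.

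**Figure D2:**
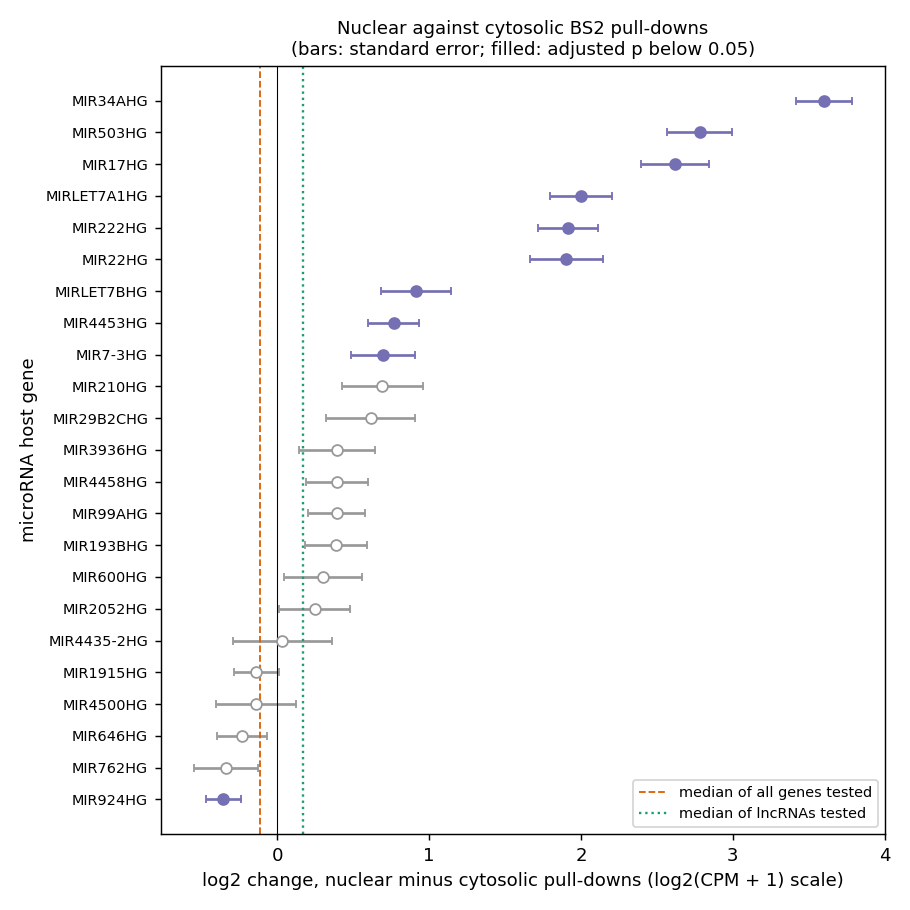
Log2 change ± standard error (log2(CPM + 1) scale) of the 23 tested host genes in 3 nuclear against 2 cytosolic pull-downs; filled points have a limma adjusted p below 0.05 and the dashed and dotted lines are the medians of all genes (-0.12) and lncRNAs (0.17). The values run from -0.36 for MIR924HG to 3.60 for MIR34AHG, with 9 filled points above 0 and 1 below.

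MIR34AHG (chromosome 1, 9148011 to 9198906, minus strand; GRCh38 with GENCODE 29, as for all genes here) had the largest change. Its level was 27.5, 27.1 and 30.7 CPM in the nuclear pull-downs and 1.66 and 1.21 CPM in the cytosolic. It stood at 5.10, 6.96 and 5.15 CPM in the non-transfected, 8.92 and 7.50 CPM in the mitochondrial and 14.4 and 21.9 CPM in the nucleolar pull-downs. The 5 groups did not overlap, and their order ran from cytosolic through non-transfected, mitochondrial and nucleolar to nuclear. The nuclear to cytosolic change was 3.60 ± 0.19 (SE; limma adjusted p = 9.78e-09). Nucleolar was lower than nuclear by a log2 change of -0.65 ± 0.19 (limma adjusted p = 0.0143), a call that was lost without the first nucleolar library (adjusted p = 0.241). The miR-34a hairpin lies in an exon of 1 of the 4 annotated transcripts. LNCTAM34A overlaps MIR34AHG on the opposite strand and was at 6.39, 6.76 and 8.17 CPM in the nuclear and 4.33 and 5.00 CPM in the cytosolic pull-downs. How reads were divided between these genes is uncertain, since the counting of strand is not given in the sources used here.

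MIR17HG (chromosome 13, 91347820 to 91354579, plus strand) holds all 6 hairpins of its cluster within exons of 2 of its 3 annotated transcripts. Its level was 32.8, 25.2 and 24.5 CPM in the nuclear and 2.67 and 4.76 CPM in the cytosolic pull-downs. It was 11.9, 11.2 and 17.2 CPM in the non-transfected, 15.3 and 10.1 CPM in the mitochondrial and 11.0 and 11.7 CPM in the nucleolar ones. The nuclear libraries were above and the cytosolic below all others, and the 3 groups between them overlapped. The nuclear to cytosolic change was 2.62 ± 0.22 (limma adjusted p = 2.28e-06).

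MIR503HG (chromosome X, 134543337 to 134546632, minus strand) has the miR-503 hairpin in an intron, and the miR-424 hairpin overlaps its first exon in part in 3 of 5 transcripts. It was measured at 12.9, 13.8 and 14.7 CPM in the nuclear and 0.829 and 1.53 CPM in the cytosolic pull-downs. Non-transfected pull-downs gave 7.67, 7.88 and 10.2 CPM, mitochondrial ones 3.84 and 4.23 CPM, and nucleolar ones 6.31 and 11.1 CPM. The nuclear libraries were again above all others and the cytosolic below, the mitochondrial were the second lowest, and the nucleolar and non-transfected ones overlapped. The nuclear to cytosolic change was 2.78 ± 0.21 (limma adjusted p = 7.44e-07).

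MIR222HG, also on chromosome X (45745211 to 45770274, minus strand), has both hairpins in an intron. Its level was 6.68, 5.50 and 6.04 CPM in the nuclear and 0.645 and 1.13 CPM in the cytosolic pull-downs, a change of 1.92 ± 0.20 (limma adjusted p = 1.65e-05). It was 4.70, 5.78 and 5.67 CPM in the non-transfected, 3.30 and 3.65 CPM in the mitochondrial and 3.06 and 4.94 CPM in the nucleolar pull-downs. Here the cytosolic libraries stood apart below all the others, while nuclear and non-transfected libraries overlapped.

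MIR22HG (chromosome 17, 1711493 to 1717174, minus strand) has the miR-22 hairpin within an exon of all 19 annotated transcripts. Its level was 7.55, 6.92 and 7.82 CPM in the nuclear and 1.47 and 1.05 CPM in the cytosolic pull-downs, a change of 1.90 ± 0.24 (limma adjusted p = 9.12e-05). It was 0.157, 0.788 and 0.825 CPM in the non-transfected, 2.92 and 4.61 CPM in the mitochondrial and 5.83 and 8.87 CPM in the nucleolar pull-downs. Nuclear and nucleolar libraries overlapped and were the highest, the mitochondrial lay between, and the non-transfected were the lowest.

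MIRLET7A1HG (chromosome 9, 94176458 to 94177892, plus strand) holds no annotated hairpin itself and lies between those of the let-7 cluster, 25 bases from let-7f-1, 422 from let-7a-1 and 942 from let-7d. Its level was 5.03, 6.45 and 5.69 CPM in the nuclear and 0.553 and 0.806 CPM in the cytosolic pull-downs, a change of 2.00 ± 0.21 (limma adjusted p = 1.62e-05). The non-transfected (1.41, 2.63 and 2.37 CPM), mitochondrial (2.55 ± 0.21 CPM, SD, n = 2) and nucleolar pull-downs (2.20 and 2.58 CPM) overlapped and lay between the 2 extremes. LINC02603, which overlaps it on the opposite strand, did not exceed 0.290 CPM in any pull-down.

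The remaining rises were smaller. MIR4453HG (chromosome 4, 152536264 to 152539263, plus strand), with the miR-4453 hairpin in its single exon, was at 9.19, 8.10 and 6.34 CPM in the nuclear and 4.15 and 4.19 CPM in the cytosolic pull-downs, and changed by 0.77 ± 0.17 (limma adjusted p = 0.00327). MIRLET7BHG, with let-7a-3 and let-7b hairpins in exons, was at 1.35, 0.865 and 1.21 CPM in the nuclear and 0.184 and 0.0806 CPM in the cytosolic pull-downs. That is 42 reads against 3, a ratio per sequenced read of 10.4 (exact 95% interval 3.34 to 52.7, counting error only), and the fitted change was 0.91 ± 0.23 (limma adjusted p = 0.00749). MIRLET7BHG reached 1 CPM in nuclear libraries alone, so it was tested only because of the group in which it was high. MIR7-3HG, which has miR-7-3 in an intron, changed by 0.70 ± 0.21 (limma adjusted p = 0.0206). The calls of MIR7-3HG and MIRLET7BHG were the ones lost without the second cytosolic library (adjusted p = 0.225 and 0.0756), which left 7 host genes higher. Both were also lost without the first or the third nuclear library, MIR7-3HG by its adjusted p (0.0503 and 0.0508) and MIRLET7BHG because it then missed the filter of 1 CPM in at least 2 libraries. MIR7-3HG was lost under quantile normalization as well (adjusted p = 0.0959).

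MIR924HG (chromosome 18, 39206924 to 39800318, minus strand), with miR-924 in an intron, was the 1 host gene that fell. Its level was 30.0, 25.6 and 24.2 CPM in the nuclear and 32.4 and 36.0 CPM in the cytosolic pull-downs, a change of -0.36 ± 0.11 (limma adjusted p = 0.0266). The fall was lost under a common total (adjusted p = 0.441), under quantile normalization (adjusted p = 0.0776) and when replicate 1 or 2 of the cytosolic or replicate 2 or 3 of the nuclear ones was left out (adjusted p = 0.0674, 0.227, 0.0772 and 0.0593). Among the named hosts that did not pass, MIR99AHG, the host of miR-99a, let-7c and miR-125b-2, had a log2 change of 0.39 ± 0.19, and MIR600HG of 0.30 ± 0.26. MIR1915HG and MIR646HG stood at -0.14 ± 0.15 and -0.23 ± 0.17. MIR99AHG did pass under a common total (adjusted p = 0.0273).

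Where the hairpin lies in the host was a property the selection did not use. In 9 of the 23 tested hosts at least 1 hairpin lay in or overlapped an exon, and 6 of these rose with nuclear against cytosolic BS2, with a median log2 change of 0.91 and values from 0.30 to 3.60. That median is the value of MIRLET7BHG, which is among the 6 and was tested only because of its nuclear libraries. In 13 hosts with intronic hairpins only, 2 rose and 1 fell, with a median of 0.25 and values from -0.36 to 1.92. Of all genes tested 10.2% rose and 23.2% fell, and of lncRNAs 20.4% and 1.96%. The last of the 23, MIRLET7A1HG, holds no hairpin. These are descriptions of overlapping groups of few genes, and the exon group includes MIR503HG through the partial overlap of miR-424.

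The next question was which hosts each construct labelled over the background of non-transfected cells. The 4 comparisons share the same 3 non-transfected pull-downs and are therefore not independent. With cytosolic BS2, 2 of 23 host genes rose and 9 fell, where 28.9% of all genes rose and 22.4% fell, and the median was -0.41 against 0.02 over all genes. The falls were led by MIR503HG at -2.15 ± 0.21 (limma adjusted p = 1.18e-06), MIR222HG at -1.77 ± 0.20 (limma adjusted p = 4.25e-06), MIR17HG at -1.63 ± 0.22 (limma adjusted p = 2.80e-05), MIR600HG at -1.49 ± 0.26 (limma adjusted p = 0.000220) and MIR34AHG at -1.46 ± 0.19 (limma adjusted p = 1.28e-05). The others that fell were MIR210HG (-1.14), the host of the hypoxia-induced miR-210, MIRLET7A1HG (-0.88), MIR4458HG (-0.86) and MIR1915HG (-0.51), the last 2 of which were lost without the first cytosolic library. Among the pull-downs, MIR210HG reached 1 CPM only in the non-transfected ones (1.25, 1.97 and 2.58 CPM) and the third nuclear one (1.99 CPM). It was thus tested only because of the group in which it was high, here and with nucleolar and mitochondrial BS2. The rises were MIR924HG at 0.91 ± 0.11 and MIR7-3HG at 0.55 ± 0.21, the second of which was lost without the first or second non-transfected or the first cytosolic library, leaving 1. MIR22HG had a change of 0.53 ± 0.24 that did not pass (limma adjusted p = 0.0785), and MIR4453HG one of -0.41 ± 0.17 (limma adjusted p = 0.0524).

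With nuclear BS2, 9 of 23 host genes rose and 4 fell, beside 32.2% and 34.2% of all genes, with a median of 0.27 against -0.03. Under a common total the median of all genes was 0.21 and that of the host genes 0.45, 66.2% of all calls were higher against 48.5% here, and 2 of the 4 falls remained. The rises were led by MIR22HG at 2.44 ± 0.22 (limma adjusted p = 1.34e-07) and MIR34AHG at 2.14 ± 0.17 (limma adjusted p = 3.46e-08). MIR7-3HG rose by 1.25 ± 0.19 (limma adjusted p = 3.52e-05), MIRLET7A1HG by 1.12 ± 0.19, MIR17HG by 0.99 ± 0.20 and MIR503HG by 0.64 ± 0.19. MIR222HG, which fell with cytosolic BS2, did not pass here (0.15 ± 0.18, limma adjusted p = 0.473). The smaller rises were MIRLET7BHG (0.59), MIR924HG (0.56) and MIR4453HG (0.36), the last with overlapping groups and lost without 1 of 4 libraries in turn (adjusted p from 0.0847 to 0.189). MIRLET7BHG was lost without the second non-transfected library (adjusted p = 0.0961), under quantile normalization (adjusted p = 0.0559) and, by the filter, without the first or the third nuclear one. MIR600HG (-1.19), MIR1915HG (-0.65), MIR4458HG (-0.47) and MIR646HG (-0.46) fell. MIR4458HG was lost without the first or the third non-transfected or the second or the third nuclear library (adjusted p from 0.0729 to 0.101), and MIR646HG without the first non-transfected one (adjusted p = 0.0511).

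**Figure D3:**
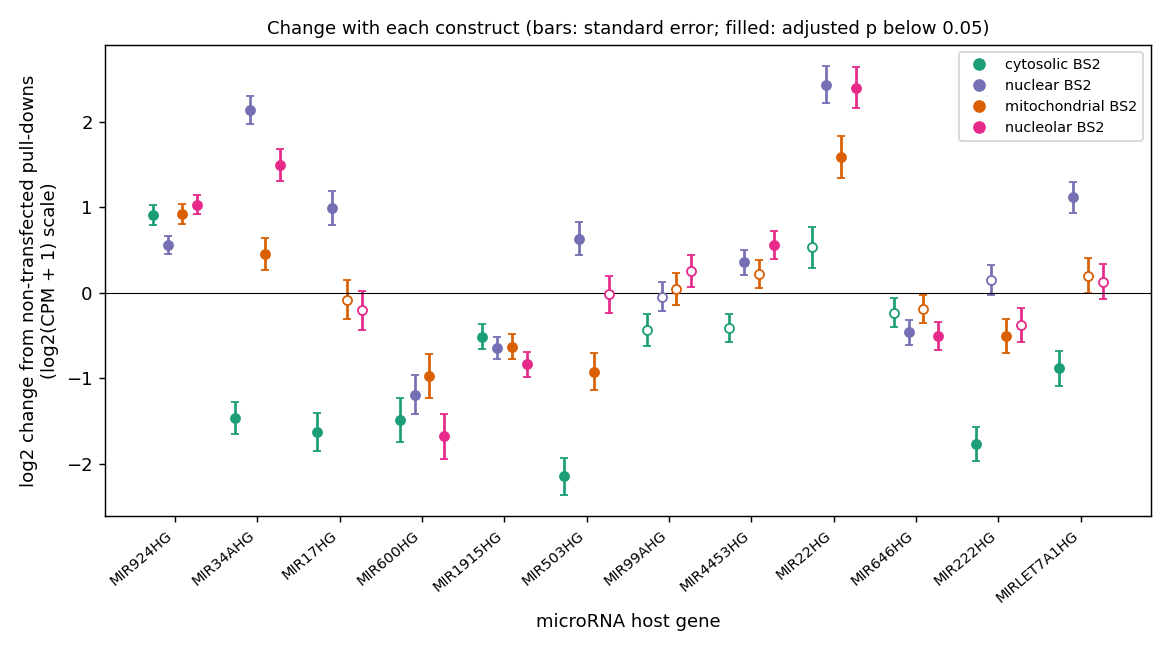
Log2 change ± standard error (log2(CPM + 1) scale) of 12 host genes with each of 4 BS2 constructs against the same 3 non-transfected pull-downs; filled points have a limma adjusted p below 0.05. MIR503HG is at -2.15 with cytosolic and 0.64 with nuclear BS2, while MIR600HG is below 0 with all 4, from -1.68 to -0.97.

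With nucleolar BS2, 5 of 23 rose and 5 fell, beside 30.1% and 35.6% of all genes, with a median of 0.06 against -0.08. MIR22HG rose by 2.40 ± 0.24 (limma adjusted p = 5.07e-07), MIR7-3HG by 2.08 ± 0.21 (limma adjusted p = 5.74e-07), MIR34AHG by 1.49 ± 0.19 (limma adjusted p = 4.67e-06) and MIR924HG by 1.03 ± 0.11 (limma adjusted p = 1.38e-06). MIR4453HG (0.56) also rose, a call lost without the second nucleolar library (adjusted p = 0.0969), and MIR600HG (-1.68), MIR210HG (-0.97), MIR1915HG (-0.83), MIR646HG (-0.50) and MIR4458HG (-0.48) fell. Without the first nucleolar library 3 falls were left, MIR646HG and MIR4458HG being lost without either nucleolar library (adjusted p from 0.0527 to 0.259). With mitochondrial BS2, 4 of 23 rose and 6 fell, beside 28.9% and 27.0% of all genes, and both medians were near 0 (-0.02 and 0.00). MIR22HG (1.59), MIR924HG (0.92), MIR7-3HG (0.91) and MIR34AHG (0.46) rose, and MIR600HG (-0.97), MIR503HG (-0.92), MIR210HG (-0.91), MIR1915HG (-0.63), MIR4458HG (-0.52) and MIR222HG (-0.51) fell. Only 3 of these falls were left without the first, and 3 without the second mitochondrial library, with MIR222HG and MIR4458HG lost in both cases, MIR600HG without the first and MIR210HG without the second. The rise of MIR34AHG was lost without either of them or the first or the third non-transfected library (adjusted p from 0.0677 to 0.255), and under a common total (adjusted p = 0.0534).

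MIR7-3HG was close to undetected in non-transfected cells, with 0, 0 and 0.103 CPM, which is 1 read in 3 libraries. It was at 0.737 and 0.323 CPM in the cytosolic, 1.65, 1.18 and 1.56 CPM in the nuclear, 0.757 and 1.15 CPM in the mitochondrial and 3.06 and 3.70 CPM in the nucleolar pull-downs. All transfected pull-downs were above the non-transfected ones, and the nucleolar were the highest. MIR7-3HG reached 1 CPM in transfected pull-downs alone, so it was tested against non-transfected cells only because of libraries in which it was high. The same holds for MIR22HG, whose non-transfected pull-downs were at 0.157, 0.788 and 0.825 CPM. Per sequenced read, the nucleolar pull-downs held 107 times as much (65 reads; exact 95% interval 18.5 to 4277, counting error only) and the cytosolic 15.9 times as much (12 reads; 2.35 to 679). Of the inputs, the non-transfected one had 0 CPM and the cytosolic, nuclear and mitochondrial ones 0.607, 0.769 and 0.197 CPM. The host was thus also low in the non-transfected input, although the limit of 3 reads there, 0.274 CPM, is above the mitochondrial value.

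MIR924HG was higher with each construct than without one. Non-transfected pull-downs were at 18.1, 16.7 and 18.3 CPM, and the mitochondrial (35.6 and 33.3 CPM) and nucleolar pull-downs (35.8 and 38.7 CPM) overlapped the cytosolic ones. Every transfected pull-down was above every non-transfected one. The inputs were at 11.6 CPM for non-transfected and 13.7, 14.6 and 15.8 CPM for cytosolic, nuclear and mitochondrial cells, all below the pull-downs of the same cells.

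The nuclear pull-downs were also set against the mitochondrial and nucleolar ones, comparisons that share the 3 nuclear libraries. With mitochondrial BS2, 7 of 23 host genes were lower and 1 higher, where 9.84% of all genes were lower and 17.7% higher. The falls were MIR34AHG at -1.68 ± 0.19 (limma adjusted p = 6.72e-05), MIR503HG at -1.56 ± 0.21 (limma adjusted p = 0.000327), MIR17HG at -1.07 ± 0.22 (limma adjusted p = 0.00345), MIRLET7A1HG (-0.92), MIR22HG (-0.84), MIR222HG (-0.66) and MIRLET7BHG (-0.66), and MIR924HG was higher by 0.36. Leaving out the first or the second mitochondrial library left 4 falls, with MIR222HG and MIRLET7BHG lost in both cases, MIR22HG without the first and MIR17HG without the second. MIR924HG was lost without either of them, without replicate 2 or 3 of the nuclear ones and under a common total. The median was -0.18 against 0.06 over all genes, and -0.39 against -0.17 under a common total. All calls were higher in 64.2% here, in 15.4% under a common total and in 50.3% with quantile normalization.

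Between the 2 nuclear compartments, 2 of 23 host genes were higher and 5 lower with nucleolar BS2, beside 16.6% and 17.9% of all genes. MIR17HG was lower by -1.20 ± 0.22 (limma adjusted p = 0.000856), MIRLET7A1HG by -0.98 ± 0.21 (limma adjusted p = 0.00197), MIRLET7BHG by -0.83 ± 0.23 (limma adjusted p = 0.0113), MIR503HG by -0.65 ± 0.21 (limma adjusted p = 0.0274) and MIR34AHG as given above. MIR7-3HG (0.83 ± 0.21) and MIR924HG (0.47 ± 0.11) were higher. Neither rise was left without the second nucleolar library (adjusted p = 0.0805 and 0.0643), nor was the fall of MIRLET7BHG (adjusted p = 0.101), and 3 falls were left without the first nucleolar or the third nuclear one. MIR503HG was lost without the first nucleolar or the second or the third nuclear library (adjusted p from 0.0631 to 0.405). The median was -0.10 against -0.05 over all genes and -0.22 for both under a common total, where 23.5% of all calls were higher against 48.1% here.

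Inputs show what the cells held before pull-down. In the fit of all 16 libraries 25 host genes were tested, MIR100HG and MIR497HG being added, and each single input was assumed to vary like the pull-downs. Over the 4 kinds of cells with an input, 8 host genes were higher in pull-down than in input and 5 were lower, beside 36.9% and 29.5% of all 16693 genes. The fit gives an average difference over these cells, and it did not hold in each of them for every host. Higher were MIR17HG at 1.01 ± 0.24 (limma adjusted p = 0.00154), MIR924HG at 0.92 ± 0.10 (limma adjusted p = 8.10e-07), MIR4453HG at 0.89 ± 0.18, MIRLET7A1HG at 0.87 ± 0.20, MIR34AHG (0.81), MIR22HG (0.58), MIR3936HG (0.50) and MIR99AHG (0.41). In cytosolic cells the MIR34AHG pull-downs (1.66 and 1.21 CPM) were below their input (4.17 CPM). There the MIR22HG pull-downs (1.47 and 1.05 CPM) and the MIR17HG ones (2.67 and 4.76 CPM) lay on both sides of their inputs (1.44 and 3.64 CPM). Lower were MIR600HG at -1.29 ± 0.33 (limma adjusted p = 0.00266), MIR210HG at -1.05 ± 0.20 (limma adjusted p = 0.000151), MIR100HG (-0.49), MIR497HG (-0.44) and MIR1915HG (-0.34). In non-transfected cells, however, the MIR600HG pull-downs (17.1, 15.7 and 15.8 CPM) were above their input (11.2 CPM). MIR497HG reached 1 CPM only in the non-transfected and nuclear inputs (1.00 and 1.38 CPM), so only the inputs let it enter. MIR100HG reached it only in the first non-transfected pull-down and the mitochondrial input (1.01 and 1.78 CPM). MIR497HG was lost with quantile normalization and without the first cytosolic pull-down or the cytosolic input (adjusted p from 0.0502 to 0.0970). MIR100HG was lost without the third non-transfected or either mitochondrial pull-down (adjusted p from 0.0506 to 0.0647). Without the second nuclear, the second mitochondrial or the input library of the nuclear cells, 5 rises were left. The calls of MIR34AHG and MIR22HG were lost in most settings. Both were lost without the second or the third non-transfected, any nuclear or any mitochondrial pull-down, the nuclear or the mitochondrial input, and MIR34AHG also without the first non-transfected pull-down or the non-transfected input and MIR22HG without the first cytosolic pull-down (adjusted p up to 0.631 and 0.519, without the nuclear input). Both were also lost under a common total, with a pseudocount of 0.25 CPM, with no filter and with the deposited log2 values (adjusted p from 0.0644 to 0.124). MIR3936HG was lost without the first cytosolic, the second nuclear or the second mitochondrial pull-down, or the nuclear or mitochondrial input (adjusted p from 0.0508 to 0.284). Its nuclear input was at 0.154 CPM, which is 1 read. The other inputs of MIR3936HG were at 0.730, 0.759 and 0.395 CPM in non-transfected, cytosolic and mitochondrial cells, so only the pull-downs let it enter. MIRLET7A1HG reached 1 CPM in the mitochondrial input (1.68 CPM) and in no other input, so it too entered because of the pull-downs, in which it was high.

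The last comparison subtracts from each change over non-transfected pull-downs the change over the non-transfected input. It asks whether a host differed by more than its total level in those cells did. With each construct it uses the same single non-transfected input and the same non-transfected pull-downs, so the results of different constructs are not independent. No input could be left out here, since each has no replicate. With cytosolic BS2, 0 of 25 host genes were higher and 3 were lower, beside 5.74% and 2.77% of all genes, with 4 higher and 7 lower at an unadjusted limma p under 0.05 and 1 higher under a common total. The falls were MIR34AHG at -1.86 ± 0.35 (limma adjusted p = 0.00851), MIR600HG at -1.80 ± 0.48 (limma adjusted p = 0.0338) and MIR503HG at -1.42 ± 0.40 (limma adjusted p = 0.0419). Without replicate 1 or 3 of the non-transfected or the second cytosolic library 1 of the 3 was left, and MIR503HG was lost without any one of these or the first cytosolic library. MIR17HG (-1.13 ± 0.43) and MIR222HG (-0.86 ± 0.37) did not pass (limma adjusted p = 0.113 and 0.155). The inputs of MIR34AHG were close together, at 2.92 CPM for non-transfected and 4.17, 3.69 and 4.64 CPM for cytosolic, nuclear and mitochondrial cells, whereas its pull-downs ran from 1.21 to 30.7 CPM.

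With nuclear BS2, 4 of 25 host genes were higher and 1 was lower after this correction, beside 7.63% and 8.94% of all genes. Under a common total 73.0% of all calls were higher, against 46.0% here, with medians of 0.44 for the host genes and 0.16 for all genes against 0.25 and -0.01 here. MIR22HG (1.88 ± 0.44, limma adjusted p = 0.0111), MIR34AHG (1.88 ± 0.34, limma adjusted p = 0.00310), MIR4453HG (1.39 ± 0.31, limma adjusted p = 0.00874) and MIR222HG (1.19 ± 0.36, limma adjusted p = 0.0362) were higher. MIR222HG was lost without the first non-transfected or the first or second nuclear library (adjusted p = 0.0590, 0.0543 and 0.0503). MIR17HG (1.03 ± 0.41) and MIR503HG (0.92 ± 0.39) did not pass (limma adjusted p = 0.103 and 0.119), and MIR17HG passed under a common total (adjusted p = 0.0388). The values of MIR222HG and MIR4453HG turn on inputs that differed. The inputs of MIR222HG were at 3.28 CPM in non-transfected and 1.29, 1.08 and 5.33 CPM in cytosolic, nuclear and mitochondrial cells. Those of MIR4453HG were at 5.75 CPM in non-transfected and 1.90, 2.31 and 2.17 CPM in the transfected cells, in the same order.

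**Figure D4:**
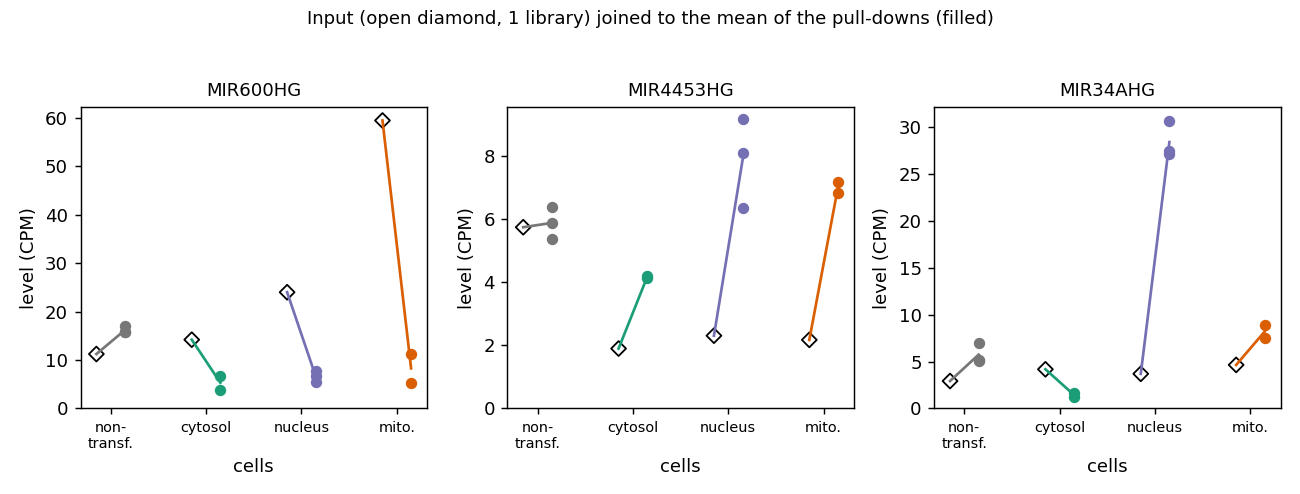
Level in CPM (linear axis from 0) of MIR600HG, MIR4453HG and MIR34AHG in the single input (open diamond) and the pull-downs (filled points) of 4 kinds of cells, each line joining the input to the mean of the pull-downs. MIR600HG is at 59.4 CPM in the mitochondrial input and 5.20 and 11.3 CPM in the pull-downs, while the transfected inputs of MIR4453HG lie between 1.90 and 2.31 CPM against 5.75 CPM in the non-transfected one.

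MIR600HG (chromosome 9, 123109494 to 123115477, minus strand), with miR-600 in the single exon of both transcripts, was higher in all 3 transfected inputs and lower in all transfected pull-downs than in those of non-transfected cells. Its pull-downs were at 17.1, 15.7 and 15.8 CPM in non-transfected, 6.78 and 3.81 CPM in cytosolic and 5.38, 7.72 and 6.68 CPM in nuclear cells, and at 5.20 and 11.3 CPM with mitochondrial and 4.97 and 3.82 CPM with nucleolar BS2. All transfected pull-downs were below all non-transfected ones. The inputs were at 11.2 CPM in non-transfected and 14.2, 24.0 and 59.4 CPM in cytosolic, nuclear and mitochondrial cells. After correction for the input the change was -2.22 ± 0.46 with nuclear BS2 (limma adjusted p = 0.00616) and -3.28 ± 0.48 with mitochondrial BS2 (limma adjusted p = 0.00245). Its exons overlap STRBP, a protein-coding gene on the same strand, so how reads were divided between them is uncertain. STRBP was at 79.3, 71.0, 69.5 and 69.9 CPM in the non-transfected, cytosolic, nuclear and mitochondrial inputs. Its pull-downs were at 103, 116 and 109 CPM in non-transfected, 99.6 and 102 CPM in cytosolic and 76.2, 70.5 and 63.1 CPM in nuclear cells. They were at 102 and 93.7 CPM with mitochondrial and 80.5 and 69.6 CPM with nucleolar BS2. All transfected pull-downs of STRBP were thus also below all its non-transfected ones. For MIR600HG, the single mitochondrial input carries the largest value and has no replicate.

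With mitochondrial BS2, 1 of 25 host genes was higher and 1 lower after the correction, beside 6.16% and 3.40% of all genes, of whose calls 64.5% were higher here and 54.2% with quantile normalization. MIR600HG was the lower one, and MIR4453HG was higher by 1.31 ± 0.32 (limma adjusted p = 0.0233), lost without the first mitochondrial library (adjusted p = 0.0540), while 2 were higher without the second or the third non-transfected one.

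The genes around the host transcripts gave a background for the nuclear to cytosolic difference. Of all lncRNAs tested, 20.4% rose and 1.96% fell. Of 10 nuclear-retained lncRNAs, 5 rose and 0 fell (limma, 5 higher and 1 lower at an unadjusted p under 0.05), among them NEAT1, the scaffold of paraspeckles, at 2.05 ± 0.13 (limma adjusted p = 1.21e-07) and MALAT1, a nuclear speckle RNA, at 1.75 ± 0.13 (limma adjusted p = 4.95e-07). The changes of MIR34AHG, MIR503HG and MIR17HG were larger than both. Without the first or the second cytosolic library 3 rises were left. Of 9 other lncRNAs that host microRNAs without the host suffix, 6 were tested, and 2 rose, LINC00461 at 1.45 ± 0.22 and FTX at 0.51 ± 0.14, the second of which was lost without the first cytosolic library (adjusted p = 0.127).

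Protein-coding genes turned on the scaling. Of all 14010 protein-coding genes tested, 8.63% rose and 26.4% fell between nuclear and cytosolic BS2. Of 27 with intronic microRNAs, 3 rose and 11 fell, with a median of -0.29, but under a common total 6 rose and 2 fell (median -0.04) and with quantile normalization 3 rose and 1 fell (median 0.01). COPZ1, a coatomer subunit gene, fell under each of these (-0.53 ± 0.08, limma adjusted p = 0.000337), whereas HNRNPK, at -0.41 ± 0.08, was at 0.01 with quantile normalization. Without the first or second cytosolic library 0 rises and 4 falls were left, and without the second nuclear one 0 and 5 (limma).

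Of 30 mRNAs for microRNA processing and effector proteins, 5 rose and 11 fell between nuclear and cytosolic BS2, with a median of -0.13 beside -0.12 over all genes. Among all protein-coding genes tested, 8.63% rose and 26.4% fell. Under a common total 10 rose and 3 fell, with quantile normalization 11 and 1, and without the first or second cytosolic library 3 rose and 5 or 4 fell. The 2 microprocessor mRNAs went apart under each scaling. DGCR8 rose by 1.13 ± 0.09 (limma adjusted p = 1.78e-06), and DROSHA fell by 0.56 ± 0.08 on the log2 scale (limma adjusted p = 0.000202). DDX17, an RNA helicase that works with them, rose by 0.93 ± 0.09. XPO5 (-0.30 ± 0.09), DICER1 (-0.35 ± 0.12) and KHSRP (-0.42 ± 0.07), which codes for a binder of microRNA precursors, passed as lower here but under neither of the other scalings (adjusted p from 0.0756 to 0.801), and XPO5 and DICER1 also failed without either cytosolic library and DICER1 without the third nuclear one.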

How the data were processed

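The deposited table holds log2 values of CPM that are filtered and TMM normalized per the labels. The submitters' processing notes name Salmon 1.4.0, STAR 2.7.9a, limma and the build GRCh38, with no role or order. CPM was recovered as 2 to the deposited log2 value minus 0.166, the value at the lowest entry. Only 69.1% to 84.2% of values per library were whole reads (tolerance 0.01), too few for a count test.

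A gene had to reach 1 CPM in 2 or more libraries of a fit. The test was limma (version 3.58.1, under R version 4.3.3) on log2(CPM + 1), with trend and a Benjamini-Hochberg adjusted p < 0.05, in 12 pull-downs (16133 genes) or all 16 libraries (16693 genes). The design was taken from the labels, and the fit was tested on simulated data. Host genes with a mean of at least 5 CPM in a pull-down group get their values. Of the other lists, the 4 smallest p-values in nuclear against cytosolic and MALAT1, NEAT1, DROSHA, DGCR8, DICER1 and XPO5 could be named. LNCTAM34A, LINC02603 and STRBP were chosen after their values were seen, as overlapping genes. Members and lists were chosen with earlier results of these data known. Coordinates and hairpin positions are from GENCODE 29, matched by identifier for all 47 host genes. Alternatives were other scalings, pseudocounts and filters, the deposited log2 values, a replicate block and each library left out. Intervals cover counting error only.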

Additional observations from a re-analysis of the deposited data

Results flagged for a closer look

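These host genes differed between cells in how far their pull-down stood from their input (difference of 2 log2 differences against non-transfected cells, limma adjusted p < 0.05 over 16693 genes). Each rests on single inputs without replicates, and all share the non-transfected one. With cytosolic BS2 the differences were -1.42 for MIR503HG, -1.86 for MIR34AHG and -1.80 for MIR600HG. With nuclear BS2 they were 1.88 for MIR22HG, 1.88 for MIR34AHG, -2.22 for MIR600HG, 1.39 for MIR4453HG and 1.19 for MIR222HG. With mitochondrial BS2 they were -3.28 for MIR600HG and 1.31 for MIR4453HG. For MIR600HG the inputs moved in the opposite direction to the pull-downs, at 11.2 CPM in non-transfected and 14.2, 24.0 and 59.4 CPM in cytosolic, nuclear and mitochondrial cells. For MIR4453HG the non-transfected input was at 5.75 CPM and the transfected ones at 1.90 to 2.31 CPM. The part of the inputs' own variation in these differences was not tested.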

How the results depend on the processing

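Counts of host genes called moved by over 1.5 times in these settings, and the cause was not tested. Under a common total, nuclear against non-transfected gave 2 lower, nuclear against cytosolic 0 lower, mitochondrial against nuclear 0 higher and cytosolic input-corrected 1 higher. With quantile normalization, nuclear against cytosolic gave 0 lower, mitochondrial against nuclear 4 lower and mitochondrial input-corrected 2 higher. With a pseudocount of 4 CPM, cytosolic against non-transfected gave 1 higher, and with the deposited log2 values nucleolar against nuclear gave 1 higher. With no filter, pull-down against input gave 9 lower, cytosolic input-corrected 5 lower, nuclear input-corrected 2 lower and mitochondrial input-corrected 2 higher, and with 1 CPM in at least 4 libraries pull-down against input gave 3 lower. The 9 host genes higher in nuclear than cytosolic pull-downs were kept in part or whole: 7 to 9 of the 9 were called under every setting run, and MIR7-3HG or MIRLET7BHG were those lost.

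With each library left out in turn, host genes called higher and lower ranged from 1 to 2 and 7 to 10 for cytosolic, 7 to 9 and 3 to 4 for nuclear, 3 to 4 and 3 to 5 for mitochondrial and 4 to 5 and 3 to 5 for nucleolar against non-transfected. They ranged from 7 to 9 and 0 to 1 for nuclear against cytosolic, 0 to 1 and 4 to 6 for mitochondrial against nuclear, 0 to 2 and 3 to 5 for nucleolar against nuclear and 5 to 9 and 4 to 5 for pull-down against input. Input-corrected, they were 0 to 0 and 1 to 3 (cytosolic), 3 to 4 and 1 to 1 (nuclear) and 0 to 2 and 1 to 1 (mitochondrial).

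Among single genes given a value, 3 changed sign between nuclear and cytosolic pull-downs: MIR600HG with 1 library left out (from -0.0476 without the second cytosolic one to 0.646), MIR1915HG under a common total (0.0875) and HNRNPK with quantile normalization (0.0101). Medians of that comparison changed sign with the scaling for all genes (-0.12 to 0.10 under a common total), protein-coding hosts (-0.29 to 0.01 with quantile normalization) and processing mRNAs (-0.13 to 0.11 and 0.16 under a common total and quantile normalization). The correlation of deviations was -0.17 to 0.16 over 21 pairs of libraries with the same replicate number and -0.16 to 0.17 over 36 others. In groups of 2 libraries the deviations are mirror images, so these ranges had to mirror each other. They cannot decide whether replicate numbers pair the libraries. The cytosolic replicates 1 and 2 are also labelled B2 and B3, so the numbers need not be those of the preparations. With the replicate block, 11 host genes were higher in nuclear than cytosolic pull-downs, MIR29B2CHG and MIR99AHG being added, and 9 single-gene changes moved below the threshold and 2 above it.

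Depth limits the hosts below 1 CPM, where 3 reads are worth up to 0.461 CPM. Single inputs, the shared scaling and groups of 2 or 3 libraries limit the rest.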
